A study of Mus musculus with 2 samples.

Results

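The genes described here are 10 regulators of the G1 phase and of entry into S phase: the D-type cyclins *Ccnd1*, *Ccnd2* and *Ccnd3*, the E-type cyclins *Ccne1* and *Ccne2*, the kinases *Cdk4* and *Cdk6*, and the inhibitors *Cdkn1a*, *Cdkn1b* and *Cdkn2c*. They were chosen by name as the listed G1 cyclins, CDKs and CDK inhibitors, and all 10 were among the 32285 genes of both count tables. scRNA-seq was performed on live CD45+ cells (7AAD-negative, a stain that enters dead cells) from mouse hearts, with 1 library from 5 pooled WT hearts and 1 library from 5 pooled *Lyve1* KO hearts. *Lyve1* encodes a hyaluronan receptor of lymphatic endothelium and of resident macrophages, and the study uses the name *Lyve1* KO for its global knockout. In both groups the infarct (MI, myocardial infarction) was made on day 2 after birth and cells were sorted 7 days after it, from mice 9 days old. Uninjured hearts were not analysed here. The labels give no strain. Each genotype had 1 library, so genotypes were not tested against each other. The intervals given are exact 95% intervals, they cover counting error only, and the spread between hearts is not in them.

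A cell leaves G1 when the retinoblastoma protein RB is phosphorylated, which frees E2F transcription factors to switch on the genes of DNA replication. D-type cyclins bind CDK4 or CDK6 and start this phosphorylation in response to growth factors, and E-type cyclins bind CDK2 and complete it. Inhibitors of the INK4 family, such as p18 encoded by *Cdkn2c*, bind CDK4 and CDK6 alone, whereas those of the CIP/KIP family, p21 (*Cdkn1a*) and p27 (*Cdkn1b*), bind cyclin-CDK complexes. Cells of the immune system use different D-type cyclins, and resident macrophages of the neonatal heart are known to divide locally.

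The WT table held 67968938 unique molecular identifiers (UMIs, each marking 1 RNA molecule) over 5713 barcodes and that of KO 61555917 over 5285, of which 4187 WT and 3391 KO cells were kept. *Lyve1* was at 249 counts for every 1000000 UMIs (CPM) in WT and at 13.1 in KO cells, in the direction of the labels. At least 1 UMI of *Ptprc*, which encodes CD45, was found in 86.7% of WT and 90.0% of KO cells, and 9 barcodes occurred in both libraries. Cells were clustered without the 10 genes and named from marker lists, which gave CCR2- macrophage-like cells (1035 WT, 426 KO), CCR2+ macrophage-like cells (187, 193), monocyte-like cells (480, 543), B cell-like cells (425, 496) and T cell-like cells (157, 270). Cells with 3 or more UMIs of *Mki67* and *Top2a* together, both transcribed from S phase to mitosis, are called cycling cells below, and all others are called other cells. Levels are summed UMIs of a group of cells divided by all UMIs of the same cells, in CPM. They were compared between groups for each gene, not between genes.

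Cycling cells made up 24.2% (250 cells, 21.6 to 26.9%) of WT and 22.3% (95 cells, 18.4 to 26.6%) of KO CCR2- macrophage-like cells, and 12% (51) and 15.9% (79) of B cell-like cells. They were fewer among CCR2+ macrophage-like cells (14 WT, 13 KO), monocyte-like cells (12, 17) and T cell-like cells (13, 27), which limits the precision there. Cycling cells were deeper in UMIs than other cells of their class. The medians were 30195.5 against 22038 UMIs in WT and 32451 against 22412 in KO CCR2- macrophage-like cells, and 33369 against 9713 and 35514 against 11757 in B cell-like cells. A minimum of UMIs finds more deep cells, and with each cell thinned to 4900 UMIs the shares of cycling cells were 11.6% and 7.47% in CCR2- macrophage-like cells and 9.50% and 10.1% in B cell-like cells. Cells at the limit itself, with 3 UMIs, were 3.38% of WT and 5.40% of KO CCR2- macrophage-like cells, and those with 2 UMIs were 6.18% and 7.28%.

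The promoters of the pair of inhibitors on which the comparisons below turn are shown first. *Cdkn2c* (GRCm38 chr4:109660876-109667189, minus strand) was the inhibitor counted as higher in cycling CCR2- macrophage-like and B cell-like cells, and *Cdkn1a* (chr17:29090976-29100727, plus strand) was the inhibitor counted as lower in both B cell-like and T cell-like than in CCR2- macrophage-like cells. These gene spans are from GENCODE. The sequences are the 250 bases before a start annotated by RefSeq on GRCm38.p6, in the direction of transcription: chr4:109666757-109667006 on the minus strand for *Cdkn2c* and chr17:29090729-29090978 on the plus strand for *Cdkn1a*. The annotations differ for *Cdkn2c*: its GENCODE span begins upstream of this RefSeq start, so that the printed window lies inside the gene by GENCODE. Capitals mark a match to a motif.
Cdkn2c: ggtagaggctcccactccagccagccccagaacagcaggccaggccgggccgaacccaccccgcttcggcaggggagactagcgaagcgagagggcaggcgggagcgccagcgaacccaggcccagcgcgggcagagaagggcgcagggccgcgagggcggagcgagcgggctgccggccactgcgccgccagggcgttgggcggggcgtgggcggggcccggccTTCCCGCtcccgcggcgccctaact
Cdkn1a: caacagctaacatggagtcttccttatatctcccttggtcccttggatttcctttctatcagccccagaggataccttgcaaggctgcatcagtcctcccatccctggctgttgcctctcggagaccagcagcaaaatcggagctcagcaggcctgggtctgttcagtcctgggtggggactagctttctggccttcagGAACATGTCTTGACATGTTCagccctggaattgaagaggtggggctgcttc
The 7-letter E2F cores searched on both strands were TTGGCGC and the core found here, TTCCCGC, with a pair of cores that each differ from it in 1 letter, TTGCCGC at one place and TTCGCGC at another, and none of these can hold another. TTCCCGC lies 25 to 19 bases before the RefSeq start of *Cdkn2c*, and after the start by the GENCODE span. At least 1 core was present in 7.89% (2591) of 32851 promoters of the same length and in 1 of the 7 genes described here that have a promoter in the table. The longer forms TTTGGCGC, TTTCCCGC, TTTGCCGC and TTTCGCGC, each of which holds 1 of the cores, were in 1.86% (611) of promoters and in 0 of the 7 genes. In *Cdkn1a*, the capitals mark a match to the p53 consensus of 20 letters with at most 1 mismatch, 51 to 32 bases before the RefSeq start. Such a match was present in 0.0761% (25) of the 32851 promoters and in 1 of the 7 genes. A further RefSeq start of each of these genes held no match. The motifs and the mismatch allowed were chosen after the sequences were seen, and a match describes the letters and not a bound site. *Ccnd1*, *Ccnd2* and *Ccne2* have no promoter in the table.

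Each D-type cyclin had its own distribution over the classes. *Ccnd1* (chr7:144929931-144939925), the cyclin induced by growth factors in many cell types, was found in macrophages. Its level in CCR2- macrophage-like cells was 265 CPM in WT (259 to 272) and 176 in KO (169 to 184), against 55.1 and 45.6 in CCR2+ macrophage-like cells. Monocyte-like cells held 4 and 3 UMIs in all, B cell-like cells 0 and 4, and T cell-like cells 0 in both libraries. The level in B cell-like cells was 0.00252 times that in CCR2- macrophage-like cells in KO, and in WT at most 0.00228 times. With each cell thinned to 4900 UMIs, 54.1% of WT and 40.7% of KO CCR2- macrophage-like cells had a *Ccnd1* UMI, against 0 of 337 WT (up to 1.09%) and 0.225% of KO B cell-like cells, which serve as the background of free RNA. Without thinning these shares were 75.8% and 67.8% against 0 and 0.605%, at median depths of 23686 and 24754.5 against 10829 and 13140 UMIs. The levels in both macrophage classes stood apart from each other and from the 3 further classes, among which the intervals overlapped. Dendritic-like cells, outside these 5 classes, had 464 CPM in WT and 278 in KO.

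*Ccnd2* (chr6:127125162-127152193) was highest in lymphocytes. This cyclin is known for its role in B cell proliferation. It was at 568 CPM (549 to 587) in WT and 543 (528 to 558) in KO B cell-like cells and at 448 and 440 in T cell-like cells, against 31.3 and 21.4 in CCR2- macrophage-like cells. The level in B cell-like cells was 18.1-fold (16.8 to 19.6) that of CCR2- macrophage-like cells in WT and 25.4-fold (22.4 to 29.0) in KO, and in T cell-like cells it was 14.3-fold and 20.6-fold. CCR2+ macrophage-like cells had 39.8 and 27.7 CPM and monocyte-like cells 20.3 and 24.2. The 3 myeloid classes stood apart in WT, and in KO each overlapped its neighbour in the order. The clusters of monocyte-like cells differed: 4.37 CPM in WT and 3.02 in KO were found in the cluster led by *S100a8* and *Ly6c2*, genes of classical monocytes, and 47.2 and 54.6 in the cluster led by *Ace* and *Pglyrp1*.

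*Ccnd3* (chr17:47505051-47599691), the D-type cyclin of developing lymphocytes, was highest in T cell-like cells, with 335 CPM (305 to 366) in WT and 379 (358 to 400) in KO. Monocyte-like cells followed with 305 and 331 CPM, which overlapped T cell-like cells in WT and stood apart in KO. B cell-like cells had 162 and 150, CCR2+ macrophage-like cells 65.9 and 70.0 and CCR2- macrophage-like cells 48.2 and 42.4, each apart from its neighbours in the order. Neutrophil-like cells, which hardly cycled, had 297 and 345 CPM. Within the lymphocytes the level was higher in a T cell-like cluster led by *Lef1* and *Skap1* (785 and 1042 CPM) and in a B cell-like cluster led by *Ebf1* and *Pax5* (513 and 545). Both clusters were shallow, with medians of 3526.5 (WT) and 5500 (KO) UMIs in the first and of 3194 and 4720 in the second. The clusters with the most cells had 10090 and 12158 (T cell-like) and 10202 and 11039 (B cell-like). The part of depth in these levels was not tested.

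**Figure D1:**
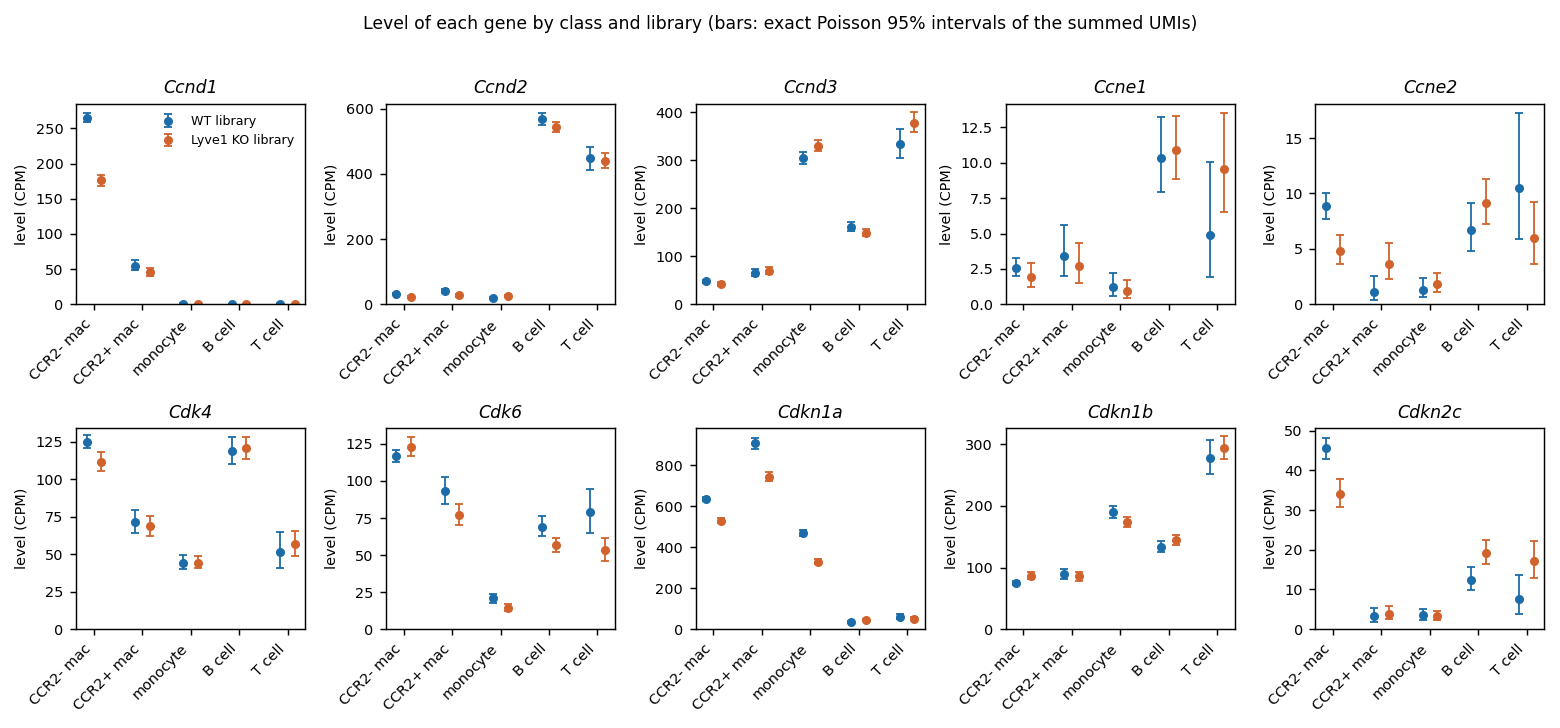
Level of each of the 10 genes in CPM (vertical axes, each panel with its own scale from 0) in 5 classes of cells, in the WT library (blue) and the *Lyve1* KO library (orange). Bars are exact Poisson 95% intervals of the summed UMIs. *Ccnd1* is found in macrophages (265 and 176 CPM in the CCR2- class), whereas *Ccnd2* is found in lymphocytes (568 and 543 CPM in B cell-like cells).

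The E-type cyclins were low in all classes. *Ccne1* (chr7:38097984-38107534) was at 10.3 CPM in WT and 10.9 in KO B cell-like cells and at 2.59 and 1.93 in CCR2- macrophage-like cells. *Ccne2* (chr4:11191351-11204779) was at 8.83 and 4.83 CPM in CCR2- macrophage-like, 6.72 and 9.13 in B cell-like and 10.5 and 5.99 in T cell-like cells. Neighbours in the order of these 3 classes overlapped in both libraries, and the order itself differed between the libraries.

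Of the kinases, *Cdk4* (chr10:127063534-127067920) was, of the 5 classes, highest in CCR2- macrophage-like cells (125 CPM in WT, 112 in KO) and B cell-like cells (119 and 121), which overlapped in both libraries. A lymphoid cluster led by *Trbc2* and *Arpp21*, outside the classes, had 300 and 294 CPM. CCR2+ macrophage-like cells had 71.5 and 68.7 CPM, T cell-like cells 51.6 and 56.9 and monocyte-like cells 44.4 and 44.4. In neutrophil-like cells the level was 0.700 and 2.26 CPM. *Cdk6* (chr5:3341485-3531008), known for its role in blood cells, was of the 5 classes highest in CCR2- macrophage-like cells with 117 CPM (113 to 121) in WT and 123 (117 to 130) in KO. The lowest level was that of monocyte-like cells, 20.7 and 14.5 CPM, and the intervals of CCR2- macrophage-like and of monocyte-like cells stood apart from those of the other classes. Shallow clusters had more *Cdk6*. A cluster led by *Gm26917* and *Tanc2*, outside the classes, had 576 and 639 CPM at medians of 5970 and 4590 UMIs. The shallow *Ebf1*-led B cell-like cluster had 277 and 200 CPM, and the shallow *Skap1*-led T cell-like cluster 211 and 186. The part of depth in these levels was not tested.

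Among the inhibitors, *Cdkn1a* was, of the 5 classes, highest in the myeloid ones. Its level was 906 CPM (878 to 933) in WT and 743 (721 to 765) in KO CCR2+ macrophage-like cells. CCR2- macrophage-like cells followed with 635 and 529 CPM, and monocyte-like cells had 469 and 329. T cell-like cells had 59.3 and 51.2 CPM and B cell-like cells 33.7 and 45.7, which was 0.0532 times the level of CCR2- macrophage-like cells in WT and 0.0865 times in KO. The 3 myeloid classes stood apart from each other in both libraries. NK and ILC-like cells (49 WT, 55 KO), lymphoid cells with an innate role, had 895 and 754 CPM of *Cdkn1a*, beside 510 and 488 CPM of *Ccnd2*. They were 1 cluster led by *Areg*, *Il5* and *Csf2*, named from a marker list that NK cells and ILC share. The cluster led by *Ccl5*, *Gzma* and *Nkg7*, outside the classes and nearest to the T cell marker list, had 92.3 and 46.5 CPM of *Cdkn1a*. A lymphoid cluster led by *Cd163l1*, also outside the classes, had 426 and 298 CPM. Levels near those of myeloid classes were thus found in more than 1 lymphoid cluster. *Cdkn1b* (chr6:134920401-134925513), whose product p27 is known from resting cells, was, of the 5 classes, highest in T cell-like cells (278 CPM in WT, 295 in KO). Monocyte-like cells had 190 and 174 CPM, B cell-like cells 134 and 144 and CCR2- macrophage-like cells 75.2 and 86.5. *Cdkn2c* was, of the 5 classes, highest in CCR2- macrophage-like cells with 45.6 CPM (43.0 to 48.3) in WT and 34.2 (30.9 to 37.8) in KO, apart from B cell-like cells with 12.5 and 19.3. A lymphoid cluster led by *Trbc2* and *Arpp21*, outside the classes, had 45.6 and 52.1 CPM of *Cdkn2c*. CCR2+ macrophage-like and monocyte-like cells had between 3.23 and 3.84 CPM.

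A gene was counted as different between lymphocytes and CCR2- macrophage-like cells when its log2 ratio of CPM + 10 was at least 1 in size with the same sign in both libraries. All 10 genes held the 100 UMIs needed over the groups compared. In B cell-like cells 2 of 10 were higher (*Ccnd2*, *Ccnd3*), against 8.42% of all genes, and 2 were lower (*Ccnd1*, *Cdkn1a*), against 11.1%. In T cell-like cells 3 were higher (*Ccnd2*, *Ccnd3*, *Cdkn1b*), against 9.32% of all genes, and *Ccnd1* and *Cdkn1a* were lower, against 12.6%. *Cdkn1b* in T cell-like cells was 3.70-fold the level of CCR2- macrophage-like cells in WT (3.32 to 4.13) and 3.41-fold in KO (3.12 to 3.73). The mean log2 ratio of each of these 9 differences was past 1 in 10 of 10 alternative ways of processing.

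The comparison of cycling with other cells of the same class gave different genes past the limit in different classes. Among genes with enough UMIs, *Ccne2* and *Cdkn2c* were higher in cycling CCR2- macrophage-like and B cell-like cells and *Cdk4* in B cell-like and monocyte-like cells. None of them was higher in CCR2+ macrophage-like or T cell-like cells. *Ccne2* and *Cdkn2c* had too few UMIs to be counted in CCR2+ macrophage-like, monocyte-like and T cell-like cells, so the classes cannot be contrasted for this pair. In CCR2- macrophage-like cells 2 of 9 genes with enough UMIs were at least 2-fold higher in cycling cells in both libraries (*Ccne2*, *Cdkn2c*), against 2.51% of all genes tested, and 0 were lower, against 0% of all genes. The UMIs needed were summed over cycling and other cells of both libraries. *Ccne2* had 205 (WT) and 52 (KO) UMIs in cycling cells and 20 and 3 in other cells. It thus had enough UMIs only through cycling cells, so its place in the count depends on its level there. *Cdkn2c* had 310 and 142 UMIs in other cells. *Ccne2* was at 26.1 CPM in cycling and 1.13 in other cells in WT, 23.0-fold higher (14.5 to 38.5). In KO it was at 15.1 against 0.378 CPM, a ratio of 39.9 that rests on 3 UMIs in other cells and has an interval from 12.9 to 200. *Cdkn2c* was at 108 against 17.6 CPM in WT, 6.17-fold higher (5.41 to 7.05), and at 71.7 against 17.9 in KO, 4.01-fold higher (3.25 to 4.96). The mean log2 ratio over both libraries stayed past 1 in 14 of 14 alternatives, from 1.04 to 3.61 for *Ccne2* and from 1.18 to 2.65 for *Cdkn2c*. In both libraries at once they were past 1 in 11 of the 14, since KO missed it with a log2 ratio of 0.91 for *Cdkn2c* under stricter cell limits, of 0.96 for *Ccne2* in female cells alone and of 0.84 for *Ccne2* with cycling set at 1 UMI.

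In cells thinned to equal depth, a *Ccne2* UMI was found in 9.39% of cycling and 0.784% of other WT CCR2- macrophage-like cells and in 5.32% and 0 of 321 (up to 1.14%) of KO cells, so the difference was also present at equal depth. Before thinning the shares were 24.4% and 2.55% in WT and 18.9% and 0.906% in KO. In neutrophil-like cells, the background here at median depths of 7676 and 7996.5 UMIs, the thinned shares were 0 of 289 in WT (up to 1.27%) and 1.34% in KO, and the other macrophages were at or below this background in KO. A *Cdkn2c* UMI was found after thinning in 29.0% of cycling and 8.10% of other cells in WT and in 24.5% and 9.35% in KO, against 0.692% and 0.669% of neutrophil-like cells.

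The remaining 7 genes with enough UMIs differed less in CCR2- macrophage-like cells. *Cdk4* was at 172 CPM in cycling and 104 in other WT cells, 1.65-fold higher (1.54 to 1.77), and at 153 and 93.8 in KO, 1.63-fold higher (1.46 to 1.83). *Ccnd1* was 1.16-fold (1.10 to 1.22) and 1.29-fold (1.18 to 1.42) higher in cycling cells. *Ccnd2* had ratios of 0.990 (0.848 to 1.15) in WT and 0.690 (0.502 to 0.934) in KO, and *Cdk6* of 1.02 (0.946 to 1.11) and 1.27 (1.14 to 1.42). *Ccnd3* had ratios of 0.974 and 1.11 and *Cdkn1b* of 1.02 and 1.02, with intervals that include 1 in both libraries. *Cdkn1a* stood on opposite sides of 1 in the libraries: its ratio was 0.872 (0.842 to 0.902) in WT, with 576 CPM in cycling and 661 in other cells, and 1.21 (1.15 to 1.28) in KO, with 601 and 497. *Ccne1* had fewer than 100 UMIs and was not counted. Its UMIs were 59 in cycling and 7 in other WT cells, 18.9-fold higher in CPM (8.64 to 49.2), and 8 and 14 in KO, a ratio of 1.32 (0.478 to 3.36).

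**Figure D2:**
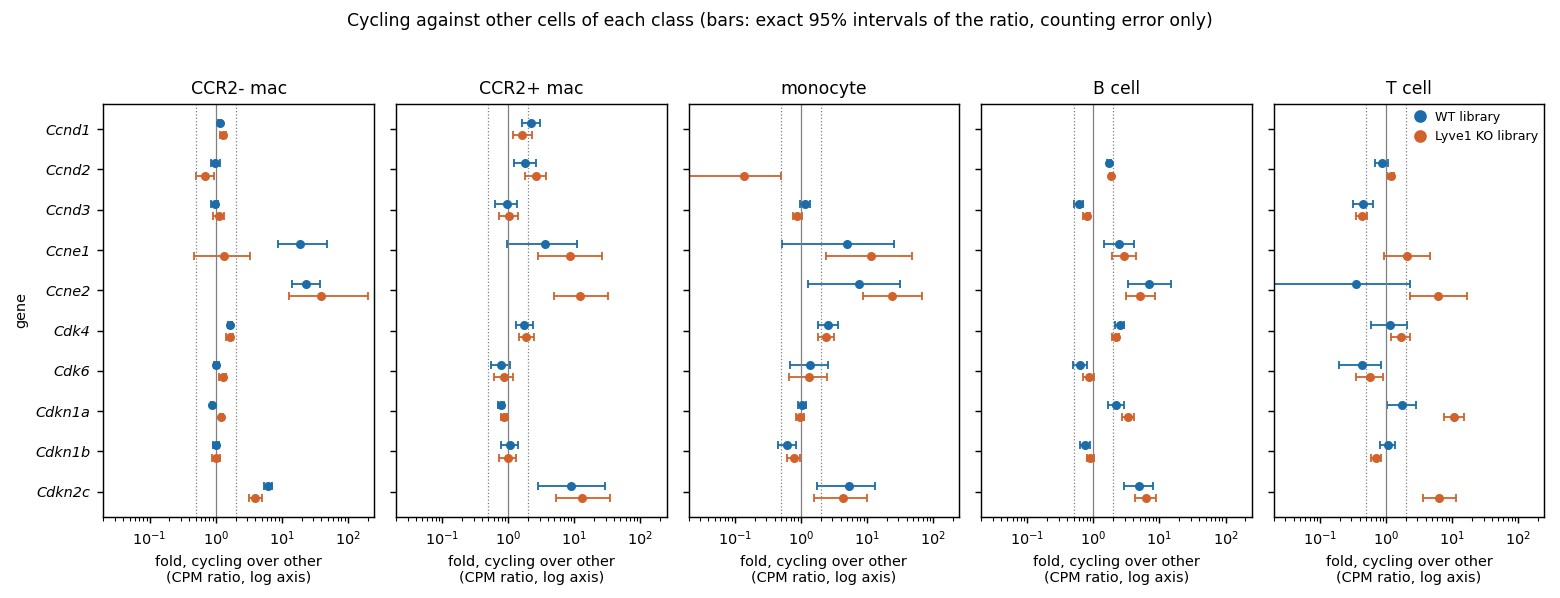
Ratio of the level in cycling cells (3 or more UMIs of *Mki67* and *Top2a*) to that in other cells, for the 10 genes in 5 classes, on a log axis. Blue points are the WT library, orange points the *Lyve1* KO library, bars exact 95% intervals of the ratio, the solid line marks equal levels and the dotted lines a difference of 2-fold. Members with fewer than 10 UMIs, or with no UMI on either side, are not drawn, and the *Ccne2*, *Cdk4* and *Cdkn2c* points of CCR2- macrophage-like and B cell-like cells lie to the right of the solid line in both libraries.

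In B cell-like cells, *Ccne2* and *Cdkn2c* were again past the limit, now with *Cdk4*. Of the genes with enough UMIs, 3 of 9 genes were at least 2-fold higher in cycling cells in both libraries (*Ccne2*, *Cdk4*, *Cdkn2c*), against 3.32% of all genes, and 0 of 9 were lower, against 2%. In other cells *Ccne2* had 11 (WT) and 23 (KO) UMIs and *Cdkn2c* 26 and 42. Both genes thus had enough UMIs only with those of cycling cells, 30 and 59 for *Ccne2* and 50 and 131 for *Cdkn2c*. *Cdk4* had 365 and 516 UMIs in other cells. *Cdkn2c* was at 28.8 against 5.95 CPM in WT, 4.84-fold higher (2.96 to 8.10), and at 43.5 against 7.03 in KO, 6.18-fold higher (4.34 to 8.98). *Cdk4* was at 208 against 83.6 CPM (2.49-fold, 2.15 to 2.89) and at 189 against 86.4 (2.18-fold, 1.93 to 2.46). *Ccne2* was 6.86-fold (3.34 to 15.2) and 5.09-fold (3.09 to 8.63) higher. Of the 14 alternatives, *Ccne2* was past the limit in 9, *Cdk4* in 10 and *Cdkn2c* in 11, and all 3 at once in 8. Of the 3, *Cdkn2c* alone was past the limit in male cells and *Cdk4* alone in female cells, and none was with cycling set at 1 UMI. *Cdk4*, the catalytic partner of the D-type cyclins, passed the limit here and not in CCR2- macrophage-like cells, and the difference between the classes was not tested. The median gene in cycling B cell-like cells lay 0.13 (WT) and 0.12 (KO) below that in other cells on the log2 scale, to which these ratios may be set.

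*Ccnd2*, the D-type cyclin that was highest in this class, was at 818 CPM in cycling and 469 in other WT B cell-like cells, 1.75-fold higher (1.63 to 1.87), and at 784 and 421 in KO, 1.86-fold higher (1.76 to 1.97). *Ccnd3* was lower in cycling cells, with ratios of 0.599 (0.509 to 0.703) and 0.792 (0.702 to 0.893), and so was *Cdkn1b*, with 0.744 (0.629 to 0.878) and 0.901 (0.799 to 1.01). These are below 2-fold and were not counted. *Cdkn1a* was at 55.3 against 25.2 CPM in WT (2.20-fold) and at 85.6 against 25.6 in KO (3.34-fold), and WT missed the limit with 10 CPM added. The 12 genes of the macrophage marker list, which are foreign to these cells, summed to 120 CPM in cycling and 155 in other WT B cell-like cells and to 277 and 140 in KO, and their part in the *Cdkn1a* level was not tested. Cycling cells were unevenly spread over the B cell-like clusters. Within the cluster that held the most of them (26 WT and 38 KO cycling cells), *Cdkn2c* was 2.59-fold and 2.96-fold and *Cdk4* 1.75-fold and 1.95-fold higher in cycling cells, whereas *Ccnd3* had ratios of 1.12 and 1.79. The lower *Ccnd3* level of cycling cells was therefore not found within that cluster.

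In CCR2+ macrophage-like cells 0 of 7 genes were at least 2-fold higher in both libraries, against 0.646% of all genes, and 0 were lower, against 0.468%. *Ccnd1* was 2.24-fold (1.64 to 3.02) and 1.64-fold (1.16 to 2.28) higher in the 14 WT and 13 KO cycling cells. *Ccnd2* was 1.83-fold and 2.63-fold higher, and 24 of its 39 UMIs in KO cycling cells came from 1 cell. The macrophage marker list summed to 24318 CPM in cycling and 18768 in other WT cells and to 8065 and 15634 in KO, so that the cycling cells of the libraries differed in macrophage genes, and the part of this in the ratios was not tested. *Cdkn2c* had 8 UMIs in cycling and 7 in other WT cells and 14 and 9 in KO, 8.94-fold and 13.3-fold higher in CPM, with too few UMIs to be counted.

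In monocyte-like cells 1 of 6 genes was higher in cycling cells (*Cdk4*), against 1.12% of all genes, and 1 was lower (*Ccnd2*), against 1.58%. *Cdk4* was at 108 against 41.3 CPM in WT (2.62-fold, 1.85 to 3.62) and at 100 against 41.2 in KO (2.44-fold, 1.82 to 3.21). In KO 30 of the 58 UMIs came from 1 of 17 cycling cells, the B cell marker list summed to 330 CPM in cycling and 123 in other cells there (87.5 and 129 in WT), and the part of this was not tested. *Ccnd2* had 0 UMIs in cycling against 168 in other WT cells and 2 against 252 in KO. Of the cycling monocyte-like cells, 10 of 12 in WT and 15 of 17 in KO lay in the cluster led by *S100a8* and *Ly6c2*, in which the level of *Ccnd2* was low in all cells. Within that cluster *Ccnd2* had 0 against 24 UMIs in WT and 0 against 19 in KO, too few to show a difference. *Cdk4* missed the limit in 6 and *Ccnd2* in 3 of the 14 alternatives. With too few UMIs to be counted, *Cdkn2c* had 6 UMIs in cycling and 23 in other WT cells and 7 and 28 in KO. These were 5.29-fold (1.76 to 13.4) and 4.29-fold (1.58 to 10.1) higher in CPM. *Ccne2* had 3 and 8 UMIs in WT and 11 and 8 in KO, 7.60-fold (1.30 to 31.7) and 23.6-fold (8.65 to 67.6) higher. All 11 came from 1 cell.

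In T cell-like cells 0 of 6 genes were higher in cycling cells in both libraries, against 1.24% of all genes, and 1 was lower (*Ccnd3*), against 1.38%. *Ccnd3* was at 167 against 368 CPM in WT, a ratio of 0.454 (0.320 to 0.628), and at 182 against 428 in KO, a ratio of 0.426 (0.350 to 0.514). Within a cluster led by *Ctla4*, *Gzmb* and *Ikzf2* the ratios were 0.450 and 0.655. *Ccnd3* missed the limit in 7 of the 14 alternatives. *Cdk6*, which pairs with the same cyclins, had ratios of 0.432 (0.192 to 0.852) and 0.569 (0.346 to 0.892). *Cdkn1a* was 1.74-fold and 10.6-fold higher in cycling cells, but 19 of 22 UMIs in WT came from 1 cell, and in KO 124 UMIs came from 9 of 27 cells, 46 of them from 1. *Cdkn2c* and *Ccne2*, with too few UMIs to be counted, lay on opposite sides of 1 in the libraries. *Cdkn2c* had 0 UMIs in cycling and 11 in other WT cells, and 35 and 22 in KO (6.42-fold, 3.66 to 11.5). *Ccne2* had 1 and 14 UMIs in WT (ratio 0.356, 0.00843 to 2.34) and 12 and 8 in KO (6.05-fold, 2.27 to 17.1).

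Steps of the *Mki67* and *Top2a* UMIs showed where the differences arose. In CCR2- macrophage-like cells *Cdkn2c* was at 16.3, 20.4 and 17.4 CPM in WT cells with 0, 1 to 2 and 3 to 9 UMIs, and at 170 CPM in the 138 cells with 10 or more. In KO it was at 17.6, 18.6 and 21.2 CPM, and at 137 in the 36 cells with 10 or more. The higher *Cdkn2c* level was thus that of the cells with the most *Mki67* and *Top2a* transcripts, and the cells with 3 to 9 UMIs were like those with none. *Ccne2* in the same steps was at 0.993, 1.44, 6.0 and 39.8 CPM in WT and at 0.544, 0, 4.65 and 28.5 in KO. In the step of 3 to 9 UMIs these levels rest on 19 and 9 UMIs of *Ccne2*. *Cdk4* was at 98.3, 117, 137 and 196 CPM in WT, higher at each step, and at 96.2, 88.3, 133 and 180 in KO. *Cdkn1b* was at 66.9 to 82.7 CPM in WT and 73.8 to 105 in KO with no order over the steps. In B cell-like cells *Cdkn2c* was at 2.52 to 6.62 CPM in WT and 6.44 to 8.94 in KO over the 3 lower steps and at 36.6 and 55.6 in cells with 10 or more UMIs.

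**Figure D3:**
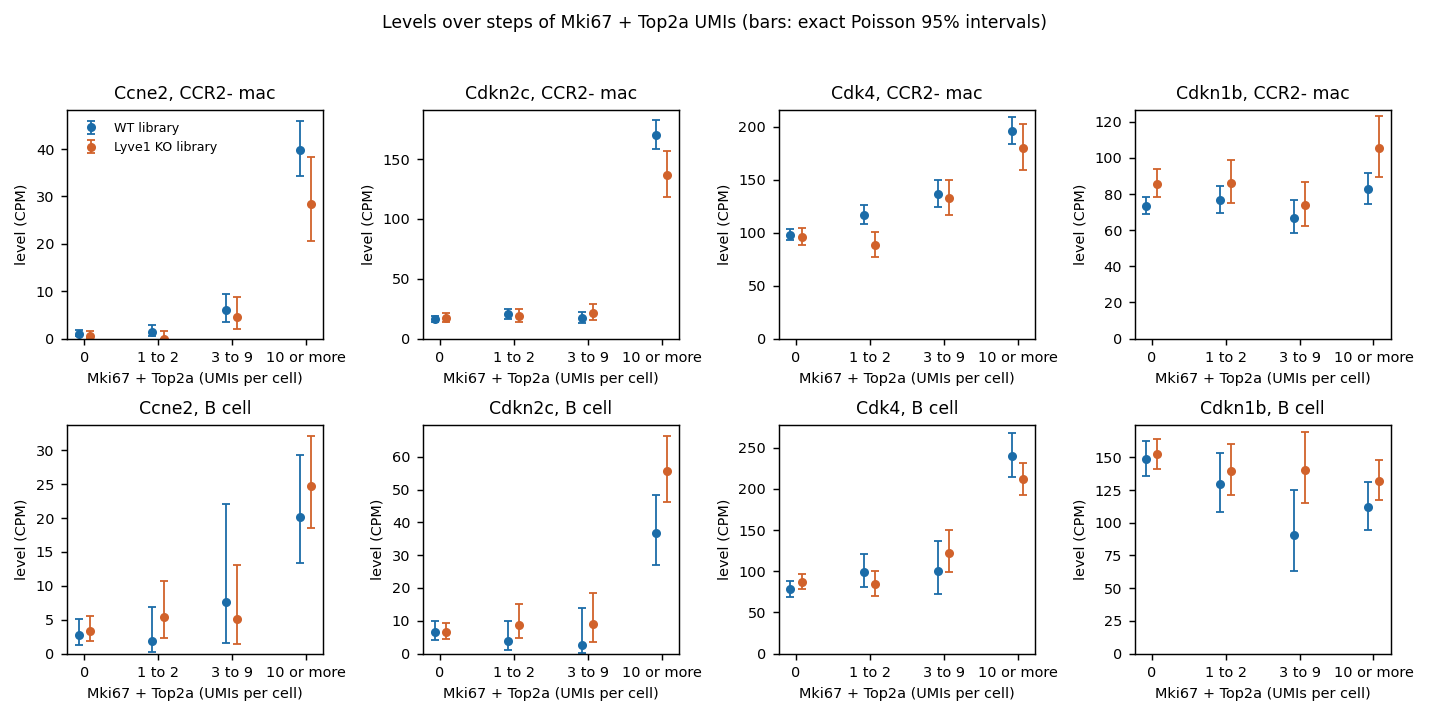
Level in CPM (vertical axes from 0) of *Ccne2*, *Cdkn2c*, *Cdk4* and *Cdkn1b* in cells with 0, 1 to 2, 3 to 9 and 10 or more UMIs of *Mki67* and *Top2a*, in CCR2- macrophage-like cells (upper row) and B cell-like cells (lower row). Blue points are the WT library, orange points the *Lyve1* KO library and bars exact Poisson 95% intervals. *Cdkn2c* is low in the first 3 steps and at 170 (WT) and 137 CPM (KO) in the last step of CCR2- macrophage-like cells.

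Within cycling cells, those with more UMIs of 42 S-phase genes than of 52 G2/M genes (S-type cells, by genes other than the 10) were compared with the remaining ones (G2/M-type cells). In CCR2- macrophage-like cells these were 92 and 158 WT and 27 and 68 KO cells. *Ccne2* was at 46.4 CPM in S-type and 13.3 in G2/M-type cells in WT (3.49-fold, 2.58 to 4.76) and at 44.8 and 3.99 in KO (11.2-fold, 5.55 to 25.1). *Ccnd1*, which differed little between cycling and other cells, was at 454 against 191 CPM in WT (2.37-fold, 2.18 to 2.58) and at 393 against 141 in KO (2.79-fold, 2.40 to 3.24). *Cdkn2c* had the opposite sign: 43.8 against 149 CPM in WT, a ratio of 0.293 (0.242 to 0.353), and 52.3 against 78.9 in KO, a ratio of 0.662 (0.474 to 0.909). *Ccnd1* was thus higher with S-phase genes and the INK4 inhibitor with G2/M genes in both libraries. *Ccne2* belongs to the published S-phase list of 43 genes and was left out of it to give the 42. Its higher level in S-type cells is therefore not a separate result. *Ccnd2* was 1.90-fold and 2.01-fold and *Cdk4* 1.44-fold and 1.90-fold higher in S-type cells. *Cdkn1a* had ratios of 0.866 and 0.768. Of the WT cells 31 and of the KO cells 14 lay near the limit, with a ratio of S to G2/M UMIs between 0.8 and 1.25.

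The cycling B cell-like cells (16 S-type and 35 G2/M-type in WT, 25 and 54 in KO) showed the same signs for *Ccnd2*, *Cdk4* and *Cdkn2c*. *Ccnd2* was at 1059 against 679 CPM in WT (1.56-fold) and at 948 against 701 in KO (1.35-fold), and *Cdk4* at 282 against 165 (1.71-fold) and 287 against 138 (2.07-fold). *Cdkn2c* was at 15.8 against 36.3 CPM in WT, a ratio of 0.434, and at 18.7 against 56.2 in KO, a ratio of 0.332. *Cdk6* was 2.31-fold and 2.48-fold higher in S-type cells. *Cdkn1a* had ratios of 1.53 in WT and 0.338 in KO, so no direction can be given.

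**Figure D4:**
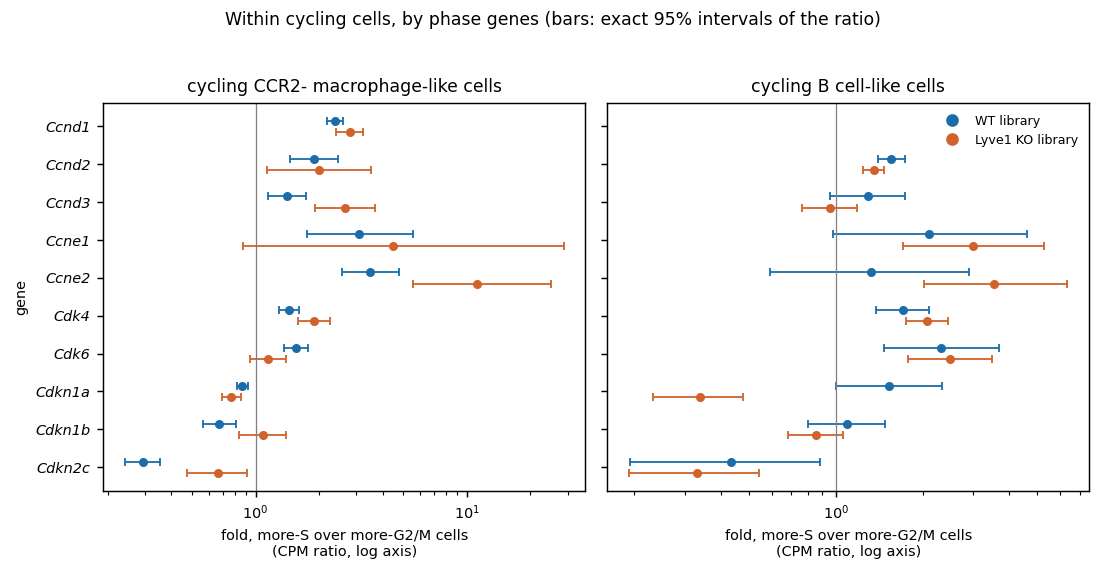
Ratio of the level in S-type to that in G2/M-type cycling cells on a log axis, for CCR2- macrophage-like cells (left) and B cell-like cells (right), in the WT library (blue) and the *Lyve1* KO library (orange), with exact 95% intervals. A gene with no UMI in the S-type or in the G2/M-type cells of a library is not drawn for that library. *Ccnd2* and *Cdk4* lie above 1 and *Cdkn2c* below 1 in both classes and both libraries, and *Ccnd1* lies at 2.37 and 2.79 in CCR2- macrophage-like cells.

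The CCR2- macrophage-like cells fell into 5 clusters, of which 1 was nearly all cycling. This cluster, led by histone genes, with no marker of the class among its 10 leading genes, held 44 WT and 17 KO cells, of which 44 and 15 were cycling, and had 262 and 211 CPM of *Cdkn2c*, 65.1 and 16.1 of *Ccne2* and 241 and 211 of *Cdk4*. The largest cluster, led by *Pf4*, *C1qa* and *Fcrls*, held 506 WT and 182 KO cells, of which 114 and 37 were cycling. Within it *Cdkn2c* was 4.67-fold higher in cycling than in other cells in WT and 3.47-fold in KO, and *Ccne2* was 17.0-fold higher in WT. In the cluster led by *Fcna*, *Ccl8* and *Cbr2*, in which *Lyve1* was at 1573 CPM in WT, *Cdkn2c* had ratios of 3.65 in WT (35 cycling cells) and 0.670 in KO (24 cycling cells). The cluster that shares most leading genes with the largest one (209 WT and 76 KO cells) had ratios of 5.16 and 3.60. For *Cdkn1a*, the ratios of cycling to other cells in the *Fcna*-led cluster were 0.892 in WT and 1.22 in KO, on opposite sides of 1 as in the whole class. In the largest cluster they were 0.990 and 1.35, close to 1 in WT.

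Among further genes of the pathway (46 genes: other cyclins and CDKs, RB and E2F family members and further inhibitors and activators), 16 of 41 with enough UMIs were in both libraries at least 2-fold higher in cycling CCR2- macrophage-like cells (2.51% of all genes were) and 0 were lower (0% of all genes). Their median log2 ratio was 0.59, against -0.00 over all genes tested. Highest were *Ccna2*, *Ccnb2* and *Cks1b*, a pair of cyclins of S phase and mitosis and a subunit of CDK complexes, and lowest were *Cdk7*, *Max* and *Rb1*. Among the same genes in B cell-like cells, 15 of 39 were higher (against 3.32% of all genes) and 0 lower (median 0.55, highest *Ccna2*, *Cdk1* and *Cks1b*). The counts of higher genes were 3 of 23 in CCR2+ macrophage-like (against 0.646%), 3 of 28 in monocyte-like (1.12%) and 2 of 24 in T cell-like cells (1.24%), with 0 lower in each. Cycling cells were set by *Mki67* and *Top2a*, transcribed from S phase to mitosis, and the list holds further genes of these phases. The excess of higher genes over all genes thus follows in part from that split and is not a separate result. Of 26 targets of p53, the factor known to induce *Cdkn1a*, between 11 and 23 had enough UMIs in a class, and 0 of these were higher in cycling cells. In B cell-like cells 3 of 18 were lower, against 2% of all genes (lowest *Plk2*, *Trp53inp1* and *Sesn1*, highest *Ccng1*, *Zmat3* and *Polk*, median of the list -0.16). In CCR2+ macrophage-like cells 1 of 17 was lower, against 0.468%. In T cell-like cells 0 of 11 were lower, against 1.38%, with *Mdm2*, *Fas* and *Gadd45a* highest and *Pmaip1*, *Ddb2* and *Btg2* lowest. A link between these genes and *Cdkn1a* was not tested.

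Between *Lyve1* KO and WT, none of the genes with enough UMIs differed by 2-fold in any class. The genes tested were 9 in CCR2- macrophage-like cells (against 0.214% of all genes past 2-fold), 7 in CCR2+ macrophage-like cells (0.519%), 6 in monocyte-like cells (0.224%), 9 in B cell-like cells (0.675%) and 6 in T cell-like cells (1%). Among those with too few UMIs to be counted, *Ccne2* had 5 UMIs in WT and 22 in KO CCR2+ macrophage-like cells, 3.41-fold in CPM (1.26 to 11.5), and *Cdkn2c* had 11 and 57 in T cell-like cells, 2.22-fold (1.15 to 4.70). Smaller differences beyond counting error were found, and with 1 library per genotype they cannot be told apart from differences between libraries or pools of hearts. In CCR2- macrophage-like cells *Ccnd1* was 0.665 times the WT level in KO (0.632 to 0.699). Its log2 ratio was -0.56, and from -0.61 to -0.49 over 11 alternatives, all of the same sign. It was lower in KO in cycling cells (293 CPM in WT, 209 in KO, ratio 0.714) and in other cells (253 and 162, ratio 0.641). In the largest cluster it was at 335 and 250 CPM (0.747), in the *Fcna*-led cluster at 156 and 89.5 (0.572), and in the 3 further clusters the ratios were 0.709, 0.928 and 0.930.

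The other genes of CCR2- macrophage-like cells differed by less, apart from those of low level. *Ccnd2* was at 0.682 times and *Cdkn1a* at 0.833 times the WT level in KO. *Cdk4* had a ratio of 0.894, *Cdk6* of 1.05 and *Cdkn1b* of 1.15 (1.06 to 1.24), the only one of the 3 inhibitors that was higher in KO. *Ccne2* had a ratio of 0.547 and *Cdkn2c* of 0.750. The *Cdkn2c* difference was that of cycling cells (108 CPM in WT, 71.7 in KO, ratio 0.661, 0.571 to 0.762), since other cells had 17.6 and 17.9 CPM (ratio 1.02, 0.829 to 1.25), and it was absent in cells taken as female (log2 ratio 0.02). The share of cycling cells at the limit of 3 UMIs was 1.85 points lower in KO, with an interval from 6.43 points lower to 3.03 points higher. At a limit of 10 UMIs it fell by 4.88 points from WT to KO (interval -8.06 to -1.29), so the cycling cells of KO held fewer of the cells in which *Cdkn2c* was high. The part of this in the ratio of 0.661 was not tested.

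In monocyte-like cells *Cdkn1a* was at 469 CPM in WT and 329 in KO, a ratio of 0.701 (0.669 to 0.734), with log2 ratios from -0.57 to -0.42 over the alternatives. *Cdk6* had a ratio of 0.699 there, 0.818 in B cell-like and 0.676 in T cell-like cells, whereas it was 1.05 in CCR2- macrophage-like cells. Within clusters *Cdk6* was less uniform. Its ratio was 1.27 (0.972 to 1.66) in the B cell-like cluster with the most cells and 0.820, 0.724 and 0.814 in the others. Its interval included 1 in each T cell-like cluster. Monocyte-like clusters had 0.827 (0.589 to 1.16), 0.711 (0.484 to 1.05) and 0.332 (0.189 to 0.571), the last at median depths of 3803 and 4768.5 UMIs. The shallow *Ebf1*-led cluster, in which *Cdk6* was high, held 95 of 425 WT and 52 of 496 KO B cell-like cells. The shallow *Skap1*-led cluster held 48 of 157 WT and 50 of 270 KO T cell-like cells. The part of this in the *Cdk6* ratios was not tested. In CCR2+ macrophage-like cells *Ccnd2* had a ratio of 0.696, *Cdkn1a* of 0.820 and *Ccnd1* of 0.828. *Cdkn1a* was thus lower in KO in all 3 myeloid classes, at 0.701 to 0.833 times the WT level. The ratio was however 1.07 (1.02 to 1.13) in 1 of 5 clusters of CCR2- macrophage-like cells. It was 1.30 in 1 of 3 clusters of monocyte-like cells, with an interval that includes 1 (0.839 to 2.04). In CCR2- macrophage-like cells the *Cdkn1a* ratio was 0.752 (0.725 to 0.780) in other cells and 1.04 (0.990 to 1.10) in cycling cells. In the histone-led cluster, with 44 of 44 WT and 15 of 17 KO cells cycling, it was however 0.579 (0.495 to 0.674). That was the lowest ratio of the 5 clusters. In B cell-like cells *Cdkn2c* was 1.55-fold higher (1.17 to 2.05) and *Cdkn1a* 1.36-fold higher in KO. The *Cdkn2c* ratio was 1.51 (1.08 to 2.14) in cycling and 1.18 (0.708 to 2.01) in other cells, and its interval included 1 within each B cell-like cluster. Cycling B cell-like cells were 51 in WT and 79 in KO, and their part in the *Cdkn2c* ratio was not tested. *Cdkn1a* differed most in a cluster led by *Iglv1* (12 WT and 30 KO cells, all cycling), with 34.2 CPM in WT and 151 in KO, and the ratio was 1.26 and 0.678 in the B cell-like clusters with the most cells. In T cell-like cells *Ccnd3* had a ratio of 1.13. *Cdkn1a* had a ratio of 0.863 (0.662 to 1.13) there, with 0.333 (0.223 to 0.493) in other and 2.03 (1.28 to 3.36) in cycling cells. Of the further pathway genes, 23 to 41 of 46 had enough UMIs in a class, and of the p53 targets 11 to 23 of 26, and 0 of these differed by 2-fold between the libraries. The median log2 ratio of the pathway genes in CCR2- macrophage-like cells was -0.22, against -0.05 over all genes tested.

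Correlation over groups of cells described which genes followed each member. Over 21 groups of class, cycling state and library with at least 20 cells, and among 8500 genes, *Ccnd1* was most like *Arhgap22* (Pearson's r = 0.987), *Cadm1* (0.970) and *Fnbp1l* (0.969). *Ccnd2* was most like *Ptprcap* (0.975), *Ccnd3* like *Rassf5* (0.935), *Ptprc* (0.931) and *Cdkn1b* (0.927), and *Cdk4* like *Nutf2* (0.987), *Srsf2* and *Ranbp1*. *Cdkn2c* was most like *Stmn1* (0.958), *Ncaph* (0.946) and *Cdk1* (0.943), and *Ccne2* like *Ndc80* (0.953), *Prc1* and *Ncapd2*, genes of mitosis and chromosome condensation among them. *Ccne1* was most like *Casp8ap2* (0.924), *Cdk6* like *Dip2c* (0.912), *Cdkn1a* like *Cysltr1* (0.892) and *Cdkn1b* like *Kif21b* (0.944). The groups share the same libraries and differ in depth, so these values are descriptions. Among the members themselves, *Ccnd3* and *Cdkn1b* had an r of 0.927 and *Ccne2* and *Cdkn2c* of 0.849.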

How the data were processed

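The authors deposited UMI counts per gene and barcode for 1 WT and 1 *Lyve1* KO library of sorted CD45+ cells (10x 5′ chemistry), from Cell Ranger 8.0.1 on mm10 (GRCm38) per the labels, restricted to called cells and not normalized. The reporting summary of the study names another version of Cell Ranger. The assignment of cells to hearts needs the reads and was not used here. Genes on the opposite strand overlap *Ccnd1* (*LTO1*), *Ccnd2* (*Gm43126*, *9330179D12Rik*), *Ccnd3* (*Bysl*), *Ccne2* (*Ints8*), *Cdk4* (*Tspan31*) and *Cdk6* (*Gm17590*, *Gm42435*). Reads of such pairs could be split by strand in counting, which was not checked here.

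Cells had at least 500 genes, 250 UMIs and at most 30% mitochondrial UMIs (exceeded by 10.5% of WT and 16.5% of KO barcodes). The automatic threshold of scrublet in scanpy 1.11.5 marked 0 barcodes, so the highest scores at 0.4% per 1000 barcodes were left out (98 WT, 73 KO). Clustering used Seurat 5.3.0 in R 4.3.3 (CCA, 2000 variable genes, 30 dimensions, 20 neighbours, resolution 0.8, cell cycle scores regressed out), with 177 genes kept out (the 10 genes, the lists, S and G2/M genes, *Lyve1*, sex-linked genes). A cluster was named with at least 3 markers, each in 25% of its cells, and stayed unnamed where leading genes of another list prevailed.

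Levels are CPM of summed UMIs, ratios were taken on log2(CPM + 10), and a gene needed 100 UMIs over the groups compared. Intervals are exact Poisson (levels), Clopper-Pearson (shares), conditional binomial (ratios) and Newcombe (differences of shares) at 95%. The calling rule was tested on simulated data, in Python 3.11.15 (scipy 1.17.1, numpy 2.4.6). Promoters are from RefSeq, and 7 of 10 genes matched. The genes named beside the 10 are *Lyve1*, *Mki67*, *Top2a* and *Ptprc*, the 3 highest and 3 lowest of each list, the 3 most alike genes per member and leading genes of clusters. The members and lists were chosen with earlier results of these data known. Results were recomputed under 14 other settings of the cell limits, clustering, scaling and cycling limit, and 1 more (within the cluster with the most cycling cells) was added after seeing the data.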

Additional observations from a re-analysis of the deposited data

Results flagged for a closer look

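Some genes had ratios of cycling to other cells whose intervals lay on opposite sides of 1 in different classes or libraries. The differences themselves were not tested, since each genotype had 1 library. *Ccnd2* had a mean log2 ratio over both libraries of 0.91 in CCR2+ macrophage-like cells and 0.84 in B cell-like cells, against -1.52 in monocyte-like cells. The monocyte-like value rests on 0 UMIs in 12 WT and 2 UMIs in 17 KO cycling cells, nearly all of the cluster led by *S100a8* and *Ly6c2*. *Cdkn1a* had a mean log2 ratio of 1.16 in B cell-like cells and 1.77 in T cell-like cells, against -0.29 in CCR2+ macrophage-like cells. In WT T cell-like cells 19 of the 22 UMIs in cycling cells came from 1 cell. In CCR2- macrophage-like cells the ratio of *Cdkn1a* was 0.872 in WT and 1.21 in KO, and in the largest cluster it was 0.990 and 1.35.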

How the results depend on the processing

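No paired analysis was possible because each genotype had 1 library. For the same reason no replicate could be left out. Of the 19 counts, scaling by the median of ratios and clustering with all variable genes changed none beyond 1.5 times, and no alternative did so for the lymphocyte comparisons. With 1 CPM added, the genes higher in cycling B cell-like cells rose from 3 to 5, and they were 1 in male cells alone, 0 with cycling set at 1 UMI and 0 within the cluster with the most cycling cells (added after seeing the data). In female cells they were 2, *Cdk4* and *Cdkn1a*. For monocyte-like cells the higher gene, *Cdk4*, was lost (0 in place of 1) with the mean of CPM per cell, without regression of the cell cycle, in female cells alone, with cycling at 1 UMI, with cycling set after thinning and within the cluster, and its mean log2 ratio of 1.16 reversed to -0.16 with cycling set after thinning (4 WT and 2 KO cells). The lower gene, *Ccnd2*, was lost (0) under stricter cell limits, with cycling at 1 UMI and within the cluster. In T cell-like cells the lower gene, *Ccnd3*, was lost (0) under stricter limits, with no doublets left out, with cycling at 1 UMI, after thinning and within the cluster, in male cells and with cycling at 10 UMIs *Cdk6* took its place, and 1 higher gene (*Cdkn1a*) appeared with the mean of CPM per cell, in female cells and after thinning. In CCR2- macrophage-like cells the higher genes were 1 in place of 2 under stricter limits (without *Cdkn2c*) and in female cells and with cycling at 1 UMI (without *Ccne2*). In CCR2+ macrophage-like cells they were 1 in place of 0 with no minimum of UMIs and after thinning, and 2 with cycling at 10 UMIs. Between KO and WT, 1 gene (*Cdkn1a*) in place of 0 was past 2-fold in female B cell-like cells, where it was higher in KO (log2 ratio 1.87). The same held in T cell-like cells with fewer than 3 UMIs of *Mki67* and *Top2a*, where *Cdkn1a* was lower in KO (-1.19). The causes were not tested. Female and male cells come from different hearts of a pool.

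Depth limits the E-type cyclins, which had 3 to 59 UMIs on a side in several comparisons, and the 12 to 27 cycling monocyte-like, CCR2+ macrophage-like and T cell-like cells. The limit of 3 UMIs finds deeper cells first, doublets may remain since the automatic threshold marked 0 barcodes, and class names rest on markers.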

Other observations

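Several clusters stayed outside the 5 classes. A cluster led by *Trbc2*, *Arpp21*, *Tcf7* and *Dntt*, genes of developing T cells, held 138 WT and 67 KO cells, of which 101 and 30 were cycling. It had 541 CPM of *Ccnd3* in WT and 737 in KO, 84.2 and 140 of *Ccne2*, 300 and 294 of *Cdk4*, 205 and 151 of *Cdk6* and 45.6 and 52.1 of *Cdkn2c*, beside 58.1 and 75.4 of *Ccnd2*. Its *Ccnd3* level was above the 335 and 379 CPM of T cell-like cells, and its *Ccnd2* level was below their 448 and 440 CPM. A cluster led by *Ccl5*, *Gzma* and *Nkg7*, genes of cytotoxic lymphocytes (92 WT, 141 KO cells), had 446 and 447 CPM of *Ccnd2*.

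A cluster led by *Saa3*, *Retnla* and *Arg1* (62 WT, 50 KO cells, 31 and 27 cycling) had 774 and 832 CPM of *Cdkn1a*, 13.8 and 17.1 of *Cdkn2c* and 65.6 and 46.3 of *Ccnd1*. Lymphoid cells led by *Cd163l1* (52 WT, 47 KO cells) had 426 and 298 CPM of *Cdkn1a*.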
